A study of Mus musculus with 4 samples.

Results

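The cells described here were macrophages of grafted pancreatic tumors that were poor in complement C1q and in Mmp12 transcripts and that held at least 3 unique molecules (UMIs) of 1 further marker transcript, and they are called marker-high macrophages. A cell of at least 200 detected genes was a member when at least 3 of Csf1r, Adgre1, Cd68, Lyz2, Ctss and Msr1 were detected, fewer than 2 of the neutrophil genes Csf3r, Retnlg, Cxcr2 and Il1r2, and fewer than 4 of the epithelial genes Krt7, Krt8, Krt18, Krt19, Epcam, Cldn4 and Cldn7, with Mmp12 under 3 UMIs, the sum of C1qa, C1qb and C1qc under 5 UMIs and the further marker at 3 UMIs or more. These measured values chose the cells, so the levels of these genes are given as a description and were not tested. The rule took 416 of 44554 cells, and 4108 cells passed its macrophage part. The other macrophages fell into a marker-low remainder of 649 cells (the same limits on Mmp12 and C1q, the marker under 3 UMIs), a C1q class of 2132 cells (Mmp12 under 3 UMIs, C1q sum of 5 or more) and an Mmp12 class of 911 cells (Mmp12 of 3 UMIs or more). The latter classes were not limited by the further marker, which was at 3 UMIs or more in 1030 cells of the C1q class (48.3%) and 514 cells of the Mmp12 class (56.4%), so that the name sets the members apart from the remainder alone.

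The study asked how removing stromal cells that express Pdgfrb, or stromal cells of the adipose lineage, alters pancreatic tumors in obese mice, using KPC tumor cells (a mouse pancreatic cancer line) grafted into C57BL/6 hosts fed a high-fat diet. There were 4 single-cell libraries, 1 for each condition. In Pdgfrb-TK/GCV, mice with a viral thymidine kinase gene under the Pdgfrb promoter received ganciclovir (GCV), which kills dividing cells that make the kinase, and in Pdgfrb-TK/PBS the same kind of mice received saline (PBS). In D-CAN, wild-type mice received a peptide that homes to adipose stromal cells and is linked to a sequence that induces cell death, and in WT/PBS wild-type mice received saline. The labels give an age of 7 months in every group, and the study's methods give another age. The Pdgfrb promoter is active in pericytes and other mesenchymal cells, all tumors came from 1 grafted line, and tumors were pooled by treatment before the libraries were made. The extraction text attached to the samples describes nuclei of another tissue, so libraries were tied to conditions by their titles.

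Each condition was therefore 1 pooled library, and differences between conditions could not be tested. Intervals given with shares and levels cover counting error only. Values of the 4 libraries are listed below with both Pdgfrb-TK libraries first (GCV, then PBS), then D-CAN and last WT/PBS, called the library order. The libraries held 127722502, 84020317, 130115741 and 155408336 UMIs in 12280, 10495, 10786 and 11657 cells, of which 12280, 10469, 10178 and 11627 had at least 200 genes. The members numbered 277, 53, 51 and 35 and held 1902729, 161484, 280577 and 320734 UMIs, so that Pdgfrb-TK/GCV gave most of the cells and the other libraries gave few. Any pair of libraries shared 26 to 42 cell barcodes. The barcodes of 3 members of Pdgfrb-TK/GCV also occurred in another library, and no barcode was a member in more than 1 library.

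Tumors draw monocytes from the blood, and these turn into macrophages that take on different states with time, oxygen supply and contact with other cells. Macrophages rich in C1q transcripts are often long-lived or matured tissue macrophages, and Mmp12, macrophage elastase, marks another tumor-associated state. MHC class II molecules, made by many matured macrophages, display peptides to helper T cells.

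The rule itself required macrophage genes, so the label was checked on markers that it did not use. All 3 such markers were detected in every library. Levels are in CPM, UMI counts scaled so that each library's class has the same total. Itgam, an integrin chain of myeloid cells, was at 567, 749, 713 and 168 CPM in the members, in library order, and was detected in 356 of 416 of them. Fcgr1, a high-affinity antibody receptor gene of macrophages and monocytes, was at 35.2, 99.1, 271 and 28.1 CPM and was detected in 100 of 416 members, most often in D-CAN. Of the rule's own genes Lyz2, which encodes the lysozyme of myeloid cells, was at 2028, 3852, 4313 and 1512 CPM and Csf1r, the receptor for the macrophage growth factor, at 165, 316, 335 and 143 CPM. A C1q sum of 4 UMIs, just under the limit, was found in 49 members, and 2 Mmp12 UMIs in 20. There were 136 members with 3 of the 6 macrophage genes, the fewest allowed, and 82 with 3 epithelial genes, the most allowed, 67 of them in Pdgfrb-TK/GCV. The further marker was at 3 UMIs in 51 members and at 2 UMIs, just outside the limit, in 49 cells of the remainder.

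Whether the cells came from monocytes cannot be read from their transcripts. The 8 monocyte markers summed to 7368, 4316, 2751 and 4019 CPM, of which Chil3, a chitinase-like protein gene of monocytes and young macrophages, was the most abundant. Ly6c2, the surface marker of classical monocytes, was at 7.36, 0, 82.0 and 12.5 CPM and was detected in 9 of 277, 0 of 53, 14 of 51 and 3 of 35 members, most often in D-CAN. Ccr2, the receptor that brings monocytes out of the marrow, was at 184, 526, 524 and 53.0 CPM, and Plac8, another monocyte gene, at 232, 439.7, 719.9 and 93.5 CPM. Markers of resident-type macrophages summed to 409, 1059, 1476 and 486 CPM.

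Transcripts of other cell types were low in the members with the exception of 3 lists. T-cell markers summed to 7.88, 0, 0 and 0 CPM, B-cell markers to 5.78, 0, 0 and 0 CPM and dendritic-cell markers to 5.78, 18.6, 17.8 and 28.1 CPM. Cd3g, the dendritic-cell gene Cd209a and the resident-macrophage gene Timd4 were at 0 UMIs in every library. By contrast KPC tumor-cell markers summed to 1095, 1028, 168 and 396 CPM, led by Krt18, markers of cancer-associated fibroblasts (CAFs) to 526, 1115, 2327 and 988 CPM, led by Col3a1, and neutrophil markers to 306, 167, 809 and 334 CPM, led by Il1r2. At least 2 genes of the T-cell, B-cell, CAF, endothelial, KPC tumor-cell or acinar list were detected in 62.5%, 45.3%, 33.3% and 74.3% of the members. These cells are called cells with markers of another type below, and neutrophil and dendritic-cell markers were not counted for it. The part of free RNA or doublets in this was not tested.

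The share of cells that were marker-high macrophages was highest in Pdgfrb-TK/GCV. It was 2.26% there (277 of 12280 cells, exact 95% Clopper-Pearson interval 2.0% to 2.53%) and 0.506% in Pdgfrb-TK/PBS (53 of 10469, 0.379% to 0.662%). It was 0.501% in D-CAN (51 of 10178, 0.373% to 0.658%) and 0.301% in WT/PBS (35 of 11627, 0.210% to 0.418%). The ratio of Pdgfrb-TK/GCV to its own control was 4.46 (3.31 to 6.10), and that of D-CAN to its own control 1.66 (1.06 to 2.64). The 2 saline libraries themselves differed by 1.68-fold (1.08 to 2.66), as much as D-CAN and WT/PBS did, and against Pdgfrb-TK/PBS the D-CAN share stood at a ratio of 0.990. The other classes were also more frequent in Pdgfrb-TK/GCV than in Pdgfrb-TK/PBS, by 1.60-fold for the remainder, 2.92-fold for the C1q class and 5.13-fold for the Mmp12 class. Against WT/PBS these ratios were 1.60, 1.42 and 1.85. The marker itself was also at 3 UMIs or more in more of the C1q class of Pdgfrb-TK/GCV (71.9%) than of the other libraries (39.8%, 27.2% and 34.9%), and in the Mmp12 class in 66.5%, 61.4%, 42.0% and 48.8% in library order.

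Among macrophages alone the contrast was smaller. The members made up 15.8% of the macrophage gate in Pdgfrb-TK/GCV (14.1% to 17.5%), 10.9% in Pdgfrb-TK/PBS (8.29% to 14.0%), 5.52% in D-CAN (4.14% to 7.19%) and 3.72% in WT/PBS (2.60% to 5.14%). The ratio for GCV was 1.44 (1.07 to 1.97) and that for D-CAN 1.48 (0.946 to 2.35), an interval that includes 1. Without cells that held markers of another type the GCV ratio within the gate was 1.33 (0.874 to 2.08), which includes 1 as well. The saline libraries of the 2 models differed more, by 2.94-fold. The members' median depth was 5410, 2722, 5449 and 9215 UMIs, and a limit set in UMIs is reached more easily in a deeper cell. Cells were therefore also thinned to 2000 UMIs and sorted by the rule again, with shallower cells left out, among them 14, 14, 4 and 2 members, which kept 9049, 7591, 7405 and 9046 cells. The GCV ratio of the share of these cells was 6.62, and within the gate the ratios were 1.75 (1.24 to 2.55) for GCV and 1.08 (0.681 to 1.72) for D-CAN. Leaving out cells with markers of another type kept 2148, 1312, 2725 and 1080 cells, from 9.29% to 26.8% of a library, so that the denominator was no longer all cells. Of what was left the GCV ratio was 2.19 for the members, 0.799 (0.549 to 1.17) for the remainder, 1.65 for the C1q class and 2.46 for the Mmp12 class.

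**Figure D1:**
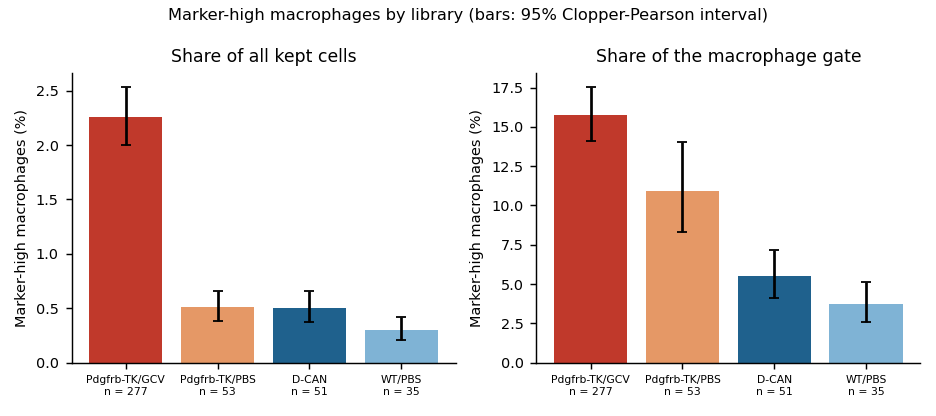
Share of marker-high macrophages in percent in the 4 libraries, over all cells with at least 200 genes and over the cells of the macrophage gate, with exact 95% intervals that cover counting error only. Pdgfrb-TK/GCV stands at 2.26% of all cells and the other libraries between 0.301% and 0.506%, while within the gate both Pdgfrb-TK libraries stand above both libraries of wild-type hosts.

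To place the members among macrophages, the UMIs of each class were summed within each library and the members were compared with each other class by edgeR's quasi-likelihood test with the library as a block, with p-values adjusted by Benjamini-Hochberg over all genes tested. Each fit held 8 sums from 4 libraries. These libraries are different conditions, so the p-values measure how uniform a difference between classes was over conditions. Against the marker-low remainder 323 of 7314 genes were higher in the members (4.42%) and 211 lower (2.88%). Against the C1q class 102 of 9468 were higher (1.08%) and 113 lower (1.19%), and against the Mmp12 class 79 of 8542 were higher (0.925%) and 107 lower (1.25%). The median log2 fold change over all genes was -0.02, -0.03 and -0.02. There were 27 genes higher and 11 lower in the members against each of the 3 classes. The members were deeper than the remainder, whose median depth was 3329.5, 1927.5, 4254 and 5671 UMIs in library order, and the part of depth in that contrast was not tested beyond the thinned counts given below.

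Several monocyte markers rose against the Mmp12 and C1q classes. Against the Mmp12 class 5 of 6 markers tested rose (Chil3, F13a1, Vcan, Hp and Ccr2, median 1.72), and against the C1q class 3 of 8 rose (Vcan, Ly6c2 and Chil3, median 0.94). Against the remainder Chil3 and F13a1 rose and Plac8 fell, of 8. Chil3 (ENSMUSG00000040809, chr3:106147554-106167564, minus strand) was at 5891, 2335, 559.6 and 3268 CPM in the members, 1232, 1269, 597 and 1461 CPM in the remainder, 3783, 604, 44.2 and 415 CPM in the C1q class and 1241, 228, 23.9 and 446 CPM in the Mmp12 class. It exceeded the C1q class (log2 fold change 2.31 ± 0.39 SE, edgeR adjusted p = 0.0147) and the Mmp12 class (log2 fold change 3.13 ± 0.29 SE, edgeR adjusted p = 0.000481) in every library, and the remainder (log2 fold change 1.15 ± 0.29 SE, edgeR adjusted p = 0.0343) in 3 of 4, D-CAN being the exception. With 1 library left out at a time, the difference from the remainder did not pass without Pdgfrb-TK/GCV (0.71, edgeR adjusted p = 0.218), Pdgfrb-TK/PBS (1.25, edgeR adjusted p = 0.0704) or WT/PBS (1.15, edgeR adjusted p = 0.0640), and that from the C1q class did not pass without Pdgfrb-TK/PBS (2.44, edgeR adjusted p = 0.0543). F13a1 and Plac8 were not called against the remainder without Pdgfrb-TK/GCV or without Pdgfrb-TK/PBS, so that no monocyte marker was called in either case. After thinning to 2000 UMIs none of 6 monocyte markers rose against the remainder and 1 fell, while 5 of 6 rose against the C1q class. Vcan, the gene of the proteoglycan versican, was at 279, 421, 481 and 296 CPM in the members against 118, 45.3, 59.4 and 92.5 CPM in the C1q class, without overlap (log2 fold change 2.25 ± 0.32 SE, edgeR adjusted p = 0.00605).

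Genes of resident-type macrophages were lower than in the C1q class, which was itself chosen by genes of such cells. Of 9 tested 6 fell and none rose, with a median of -2.28. Folr2, a folate receptor gene of tissue macrophages, was at 2.63, 6.19, 14.3 and 0 CPM in the members and 30.0, 111, 56.9 and 64.6 CPM in the C1q class (log2 fold change -3.43 ± 0.45 SE, edgeR adjusted p = 0.00350). Mrc1, the mannose receptor gene, was at 203, 526, 267 and 299 CPM in the members, lower than in the C1q class (log2 fold change -1.47 ± 0.14 SE, edgeR adjusted p = 0.000456) but higher than in the remainder (log2 fold change 0.77 ± 0.19 SE, edgeR adjusted p = 0.0301). The difference from the remainder did not pass without Pdgfrb-TK/GCV (0.73, edgeR adjusted p = 0.182), D-CAN (0.81, edgeR adjusted p = 0.0610) or WT/PBS (0.62, edgeR adjusted p = 0.103). Against the Mmp12 class none of 5 passed in edgeR, 4 had an unadjusted p under 0.05 and DESeq2 called 1, with a median of -0.83.

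MHC class II genes fell against all 3 classes. Of 7 tested, 5 fell against the remainder, 6 against the C1q class and 7 against the Mmp12 class, with medians of -1.37, -1.99 and -2.54, and none rose. H2-Aa (ENSMUSG00000036594, chr17:34282744-34287823, minus strand), the alpha chain of the I-A molecule, was at 58.3, 390.1, 1500.5 and 181 CPM in the members, 481, 715, 2053 and 579 CPM in the remainder, 463, 1319.7, 3166 and 1154 CPM in the C1q class and 1222, 2252, 3719 and 1838 CPM in the Mmp12 class, in library order. In each library the members stood lowest of the 4 classes (log2 fold change -1.40 ± 0.33 SE, edgeR adjusted p = 0.0248 against the remainder, -2.07 ± 0.28 with edgeR adjusted p = 0.00454 against the C1q class, and -2.89 ± 0.41 with edgeR adjusted p = 0.00559 against the Mmp12 class). The 5 falls against the remainder were all lost without Pdgfrb-TK/GCV, while 4 against the C1q class and 6 against the Mmp12 class were called without it. Dendritic-cell markers, a cell type rich in class II, summed to 15.7, 40.4, 272 and 49.9 CPM in the remainder, more than in the members in every library, and their part in the fall was not tested. For H2-Aa the difference from the remainder did not pass without Pdgfrb-TK/GCV (-0.93, edgeR adjusted p = 0.0967) or WT/PBS (-1.32, edgeR adjusted p = 0.0547). Cd74, the invariant chain gene, was at 221, 1369, 4516 and 649 CPM in the members and did not pass against the remainder (log2 fold change -0.89 ± 0.29 SE, edgeR adjusted p = 0.0897).

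Genes induced by low oxygen rose against the remainder in 10 of 14 cases and fell in none (median 1.26). Of 14 tested against the C1q class 5 rose (Ero1l, Vegfa, Slc2a1, Bnip3 and Egln3, median 0.98), and against the Mmp12 class none of 15 passed in edgeR or DESeq2, 8 having an unadjusted p under 0.05 in edgeR (median 0.44). Egln3, an oxygen sensor that marks hypoxia-inducible factors for decay, was at 280.1, 186, 199.6 and 37.4 CPM in the members, 79.0, 54.8, 47.7 and 18.3 CPM in the remainder, 159, 36.2, 26.0 and 19.99 CPM in the C1q class and 199, 128, 51.1 and 20.1 CPM in the Mmp12 class. It exceeded the remainder (log2 fold change 1.85 ± 0.22 SE, edgeR adjusted p = 0.000842) in 4 of 4 libraries and the C1q class (log2 fold change 1.74 ± 0.35 SE, edgeR adjusted p = 0.0292) in 4 of 4. Vegfa, the growth factor of blood vessels, was at 266, 229, 442 and 234 CPM in the members and 137, 48.3, 124 and 144 CPM in the C1q class (log2 fold change 1.40 ± 0.25 SE, edgeR adjusted p = 0.0163), without overlap. After thinning to 2000 UMIs 6 of 13 hypoxia genes rose against the remainder, and without Pdgfrb-TK/GCV 7 of 13 did. Against the C1q class the number that rose was 4 without Pdgfrb-TK/GCV, none of 15 without Pdgfrb-TK/PBS, none of 14 without D-CAN and 9 of 14 without WT/PBS. Egln3 did not pass there without Pdgfrb-TK/PBS (1.56, edgeR adjusted p = 0.128) or D-CAN (1.29, edgeR adjusted p = 0.0980), and Vegfa did not pass without Pdgfrb-TK/PBS (1.19, edgeR adjusted p = 0.0695) or D-CAN (1.23, edgeR adjusted p = 0.0826).

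The 5 hypoxia genes that rose against both the remainder and the C1q class each have the core motif of hypoxia-inducible factors, ACGTG, in the 250 bases before a RefSeq start. The motif was searched on both strands, as ACGTG or CACGT, which overlap in the palindrome CACGTG. It was found before 12 of the 14 listed genes that had a promoter in the table and before 4998 of 27025 genes in all (18.5%). The windows below, of 25 bases each from GRCm38.p6, are shown so that the sites can be compared, read 5′ to 3′ on the gene's strand with the motif in capitals.
Vegfa: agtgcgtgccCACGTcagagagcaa
Slc2a1: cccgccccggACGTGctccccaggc
Bnip3: cacgcgccgCACGTGccacacgctc
Egln3: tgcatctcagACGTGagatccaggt
Ero1l: cgcgccgctgCACGTccgcagggga
The Vegfa window lies at chr17:46025360-46025384 (minus strand), 211 bases before an alternative start inside the gene and in an exon of another transcript. That of Slc2a1, the glucose transporter, lies at chr4:119108699-119108723 (plus strand), 36 bases before the start and overlapping an exon of another transcript. Bnip3, which acts in the removal of mitochondria, has its window at chr7:138909599-138909623 (minus strand), 107 bases before the start, and Egln3 at chr12:54204089-54204113 (minus strand), 229 bases before it, both upstream of the gene. The window of Ero1l, an oxidase of the endoplasmic reticulum listed by RefSeq as Ero1a, lies at chr14:45318621-45318645 (minus strand), 63 bases before the start and in an intron of another transcript. A match of these letters is a description and says nothing of binding in these cells.

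Glycolysis genes rose against the remainder and the C1q class. Of 13 tested 10 rose against the remainder (median 0.73), 9 against the C1q class (median 0.71) and 1 against the Mmp12 class (median 0.32). Gapdh was at 2756, 2335, 2071 and 1780.3 CPM in the members and 2043, 1496, 1222 and 1254 CPM in the C1q class (log2 fold change 0.62 ± 0.11 SE, edgeR adjusted p = 0.0151). The gene that passed all 3 fits was Slc16a3, which exports lactate, at 180.3, 179.6, 249 and 212 CPM in the members. In the remainder it was at 48.3, 43.3, 70.4 and 79.4 CPM, in the C1q class at 117, 52.3, 82.0 and 97.6 CPM and in the Mmp12 class at 112, 112, 117 and 127 CPM, below the members in each library. Its log2 fold changes were 1.86 ± 0.20, 1.25 ± 0.22 and 0.79 ± 0.16 SE. With 1 library left out 3 to 7 glycolysis genes rose against the remainder, the fewest without Pdgfrb-TK/GCV and 5 and 6 without D-CAN and Pdgfrb-TK/PBS. After thinning to 2000 UMIs 5 of 13 rose against the remainder, and 4 of 13 did against a remainder with 0 UMIs of the further marker. The count against the C1q class was 4 without Pdgfrb-TK/GCV, 2 without D-CAN and 0 of 13 without Pdgfrb-TK/PBS. Slc16a3 did not pass against the Mmp12 class with any 1 of the 4 libraries left out (edgeR adjusted p from 0.0616 to 0.131), nor against the C1q class without Pdgfrb-TK/PBS (1.11, edgeR adjusted p = 0.0703) or D-CAN (1.11, edgeR adjusted p = 0.0728). Gapdh did not pass against the C1q class without Pdgfrb-TK/GCV (0.66, edgeR adjusted p = 0.0540) or Pdgfrb-TK/PBS (0.59, edgeR adjusted p = 0.128).

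Inflammatory genes rose in 5 of 11 cases against the remainder (Il6, Il1b, Nlrp3, Il1a and Tnf, median 1.0), in 6 of 12 against the C1q class (the same 5 and Ptgs2, median 1.08) and in 2 of 11 against the Mmp12 class (Il6 and Il23a, median 0.18). Il6, the cytokine interleukin 6, was at 177, 80.5, 132 and 196 CPM in the members. In the remainder it was at 40.2, 23.1, 43.6 and 97.7 CPM, in the C1q class at 116, 29.2, 37.7 and 84.4 CPM and in the Mmp12 class at 68.6, 30.4, 38.6 and 91.4 CPM. The members stood above each class in 4 of 4 libraries, by 1.70 ± 0.24, 1.22 ± 0.23 and 1.37 ± 0.19 SE on the log2 scale. Without Pdgfrb-TK/GCV 1 gene of this list rose against the remainder, and without D-CAN 3. After thinning to 2000 UMIs 2 of 10 rose against the remainder and 7 of 10 were higher in sign, where all 11 had been before, and against a remainder with 0 UMIs of the further marker 3 of 11 rose. The count against the C1q class was 4 without Pdgfrb-TK/GCV (where Cxcl9 fell) and 1 without Pdgfrb-TK/PBS or D-CAN, and against the Mmp12 class 1 without any given library. Il6 did not pass against the C1q class without Pdgfrb-TK/PBS (1.17, edgeR adjusted p = 0.0751) or D-CAN (1.02, edgeR adjusted p = 0.0794), and it passed against neither the C1q nor the Mmp12 class once cells with markers of another type were left out. Of 4 CXC chemokines tested the neutrophil-attracting Cxcl1, Cxcl2 and Cxcl3 rose against the remainder. Against the C1q class Cxcl2 and Cxcl3 rose and Cxcl16, a membrane-bound chemokine, fell (-2.01 ± 0.21 SE on the log2 scale), of 4, and against the Mmp12 class Cxcl16 fell (-2.56 ± 0.26 SE) and none of 5 rose. Cxcl3 was at 87.2, 242, 1326 and 3794 CPM in the members and 46.6, 16.1, 139 and 649.8 CPM in the C1q class (log2 fold change 2.57 ± 0.37 SE, edgeR adjusted p = 0.00674). Against the Mmp12 class Cxcl3 did not pass (log2 fold change 1.08 ± 0.48 SE, edgeR adjusted p = 0.413). Of 9 CC chemokines Ccl6 and Ccl9 rose against the remainder, and Ccl8 fell against the C1q class (log2 fold change -5.43 ± 0.47 SE, edgeR adjusted p = 0.000337).

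**Figure D2:**
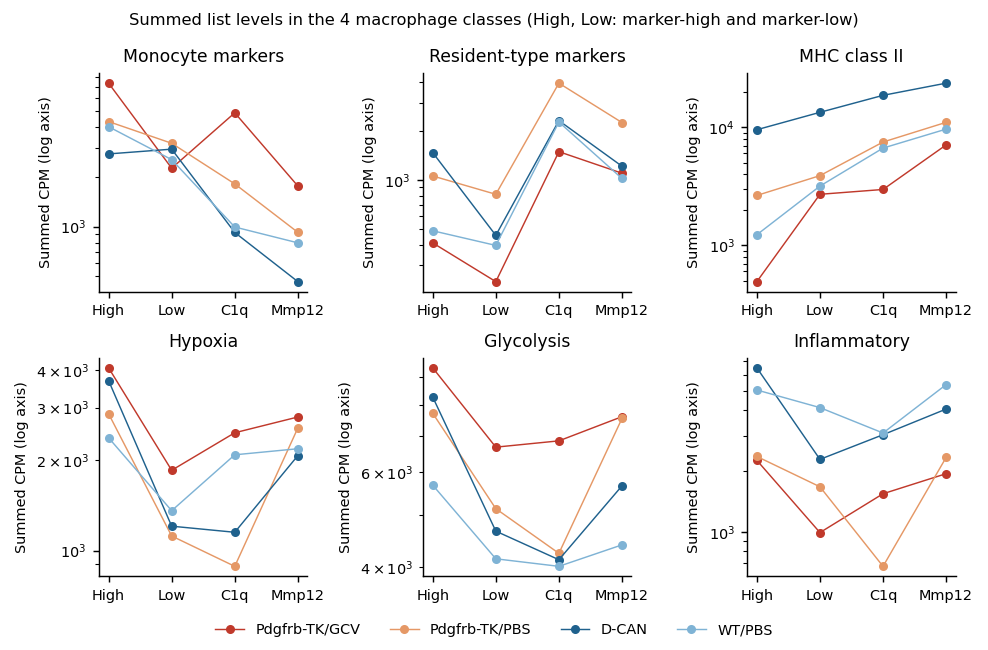
Summed levels in CPM on a log axis of 6 gene lists in marker-high macrophages and the other 3 macrophage classes, 1 line for each library. For MHC class II the marker-high macrophages lie lowest in every library, and for hypoxia, glycolysis and inflammatory genes they lie above the remainder in every library.

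Matrix genes included some of the highest transcripts of the members. Fn1 (ENSMUSG00000026193, chr1:71585520-71653200, minus strand), fibronectin, was at 3439, 5555, 3236 and 2260.4 CPM and exceeded the remainder (log2 fold change 1.39 ± 0.16 SE, edgeR adjusted p = 0.000754), the C1q class (log2 fold change 1.08 ± 0.18 SE, edgeR adjusted p = 0.0148) and the Mmp12 class (log2 fold change 1.25 ± 0.15 SE, edgeR adjusted p = 0.00268). Thbs1, thrombospondin 1, was at 1579, 1542, 2616 and 1839.5 CPM and rose against the same classes by 1.74 ± 0.35, 1.45 ± 0.33 and 1.85 ± 0.31 SE on the log2 scale (edgeR adjusted p = 0.0123, 0.0463 and 0.0129). Fn1 did not pass against the C1q class without Pdgfrb-TK/PBS (0.92, edgeR adjusted p = 0.0927) or D-CAN (0.94, edgeR adjusted p = 0.0618). Thbs1 did not pass against the remainder without Pdgfrb-TK/GCV (1.57, edgeR adjusted p = 0.109) or D-CAN (1.46, edgeR adjusted p = 0.0630), against the C1q class without Pdgfrb-TK/PBS (1.33, edgeR adjusted p = 0.209) or D-CAN (0.99, edgeR adjusted p = 0.0712) and against the Mmp12 class without Pdgfrb-TK/PBS (1.65, edgeR adjusted p = 0.0680). In all 7 of 16 matrix genes rose against the remainder, 3 against the C1q class and 2 against the Mmp12 class, where Mmp13, Mmp14 and Plau fell. Of the CAF markers Col1a1, at 178, 161, 741 and 415 CPM, rose against the remainder and the C1q class, 1 of 4 and 1 of 5 tested. Neither call was made without Pdgfrb-TK/GCV, Pdgfrb-TK/PBS or D-CAN, the difference from the remainder turned to -0.19 after thinning, and that from the C1q class turned to -0.72 on the log2 scale once cells with markers of another type were left out. Spp1, osteopontin, was at 3066, 5338, 1558 and 798 CPM and did not pass in any of the 3 fits.

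Lipid and lysosome genes split the classes in both directions. Against the remainder 9 of 19 rose (Ctsb among them, which turned to -0.014 after thinning) and Cd36, a fatty-acid receptor gene, fell. Against the C1q class 2 of 20 rose (Lgals3 and Olr1, a receptor for oxidised lipoprotein) and 5 fell (Apoe, Ctsb, Fabp5, Stab1 and Cd63), and against the Mmp12 class Olr1 rose and Apoe, Fabp5, Ctsb, Cd63 and Cd36 fell. Apoe, a lipid carrier that macrophages secrete, was at 1996, 4007, 4708 and 1409 CPM in the members against 13908, 17314, 15194 and 15426 CPM in the C1q class (log2 fold change -2.48 ± 0.24 SE, edgeR adjusted p = 0.000456), with no overlap. Olr1 was higher by 1.69 ± 0.31, 1.36 ± 0.19 and 1.21 ± 0.21 SE on the log2 scale against the 3 classes. Without Pdgfrb-TK/GCV it did not pass against the remainder or the Mmp12 class.

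The arginine and polyamine list, whose genes carry arginine in, use it or make polyamines, gave few calls. Of 16 genes tested against the remainder 3 rose and none fell (Slc7a2, Nos2 and the antizyme inhibitor Azin1), with a median of 0.18. Azin1 turned to -0.13 on the log2 scale after thinning. Slc7a2 (ENSMUSG00000031596, chr8:40862396-40922308, plus strand) was at 826, 409, 431 and 602 CPM in the members and 138, 54.8, 31.8 and 236 CPM in the remainder, in library order (log2 fold change 2.65 ± 0.31 SE, edgeR adjusted p = 0.000785). The groups did not overlap. Against the C1q class, at 478, 265, 115 and 245 CPM, Slc7a2 was the list's single riser of 17 genes (log2 fold change 1.19 ± 0.21 SE, edgeR adjusted p = 0.0161). In the Mmp12 class it was at 522, 541, 276 and 615 CPM and none of 17 genes of the list passed in edgeR or DESeq2, 3 having an unadjusted p under 0.05 in edgeR (Slc7a2 log2 difference 0.22 ± 0.19 SE, edgeR adjusted p = 0.789). Nos2, which turns arginine into nitric oxide, was at 169.8, 155, 10.7 and 106 CPM in the members against 18.4, 5.77, 10.1 and 15.3 CPM in the remainder (log2 fold change 2.93 ± 0.42 SE, edgeR adjusted p = 0.00238), with D-CAN at the level of its remainder. Its log2 difference from the C1q class of 1.57 missed the threshold (edgeR adjusted p = 0.174).

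The other lists gave calls in both directions. Of 10 alternative-activation genes Mrc1, Ccl24 and Chil3 rose and Mgl2 and Pdcd1lg2 fell against the remainder. Mgl2, a lectin gene of alternatively activated cells, was almost absent at 1.58, 6.19, 3.56 and 0 CPM in the members against 129, 237, 484 and 42.9 CPM in the Mmp12 class (log2 fold change -6.37 ± 0.33 SE, edgeR adjusted p = 1.25e-05). Of 11 immune-suppression genes Nt5e, Vsir, Trem1 and Ptges rose against the remainder (Vsir turning to -0.12 after thinning), Nt5e against the C1q class, and Il1rn fell against the Mmp12 class. Of 11 transcription factors 3 rose against the remainder, Cebpb and Nfil3 among them, and Irf8, a factor of monocyte and dendritic-cell development, fell against the C1q (-1.01 ± 0.22 SE) and Mmp12 (-0.96 ± 0.19 SE) classes, though not with any 1 of the 4 libraries left out (edgeR adjusted p from 0.0527 to 0.117). The ferritin genes Fth1 and Ftl1 and Hmox1 rose against the remainder, Fth1 against the C1q class, and none of 6 iron genes passed against the Mmp12 class, 2 having an unadjusted p under 0.05 in edgeR. Of 8 cell-cycle genes none passed against any class in edgeR, with 2, 1 and 0 at an unadjusted p under 0.05. Of 11 genes induced by tissue dissociation Fos and Nr4a1 rose against the remainder (Nr4a1 turning to -0.073 after thinning) and none passed in edgeR against the C1q or Mmp12 class, with 2 and 3 at an unadjusted p under 0.05. Of the interferon genes Ifit1 fell against the remainder, none of 11 passed in edgeR against the C1q class, 3 having an unadjusted p under 0.05, and 2 of 11 fell against the Mmp12 class. DESeq2 called none of the lists for which edgeR called none in this paragraph.

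Beyond the lists, the largest rises against the remainder after Nos2 and Slc7a2 included Ltc4s (2.59 on the log2 scale), the leukotriene C4 synthase gene, Cxcl3 (2.57), Junos (2.57) and Ppp1r3b (2.36), which targets a phosphatase to glycogen. Cacna1d (2.32), the coagulation factor gene F7 (2.22) and the stress cytokine gene Gdf15 (2.19) followed. The largest falls were S100a9 (-3.79), a calprotectin subunit of neutrophils and monocytes, Pcdh9 (-2.98), Kcnq5 (-2.50), Tspan13 (-2.37), Igfbp3 (-2.35) and Mgp (-2.33). Phgdh (-2.32), which opens serine synthesis, Rbp4 (-2.26), Ciita (-2.25), the master activator of MHC class II genes, and Hmga2 (-2.17) were the remaining falls among the 10 largest. With each library left out in turn, 5 of the rises and 5 of the falls were called every time. Without Pdgfrb-TK/GCV Cxcl3, F7, Gdf15, Ciita, Mgp and Tspan13 did not pass (edgeR adjusted p from 0.0501 to 0.139), nor did Mgp without D-CAN (0.0583), and Nos2, Ppp1r3b, Kcnq5 and Pcdh9 were too low to be tested in at least 1 of the 4 omissions. S100a9 was at 5.78, 18.6, 21.4 and 9.35 CPM in the members and 52.4, 109.6, 435 and 339 CPM in the remainder, without overlap (edgeR adjusted p = 0.000270). KPC tumor-cell markers, which the rule capped in both, summed to 2542, 2293, 954 and 1289 CPM in the remainder, more than in the members in every library. Neutrophil markers, S100a9 among them, summed to 238, 387, 1127 and 1245 CPM in the remainder, more than in the members in 3 of 4 libraries. The part of either in these falls was not tested.

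Against the C1q class the largest rises were Cxcl3 (2.57), Chil3 (2.31), Vcan (2.25), the growth factor receptor gene Met (2.18), Plcb1 (2.14), a phospholipase of receptor signalling, Gpr141 (2.13), the siderophore-binding Lcn2 (2.02), Cxcl2 (1.82), Egln3 (1.74) and Rgcc (1.72). Plcb1 was at 806, 514, 1533 and 1422 CPM in the members and 369, 79.5, 240.0 and 340.0 CPM in the C1q class (log2 fold change 2.14 ± 0.25 SE, edgeR adjusted p = 0.00171). The largest falls were Adamdec1 (-5.85), Ccl8 (-5.43), Ms4a7 (-5.03), Fcrls (-4.63), Mgl2 (-4.39), Folr2 (-3.43), the B-cell and macrophage adaptor gene Blnk (-3.37), the prostaglandin D synthase gene Hpgds (-3.19), Fcna (-3.00) and Tspan13 (-2.64). Ms4a7, a membrane protein gene of mature macrophages, was at 1.05, 6.19, 14.3 and 3.12 CPM in the members against 59.5, 169, 435 and 47.4 CPM (log2 fold change -5.03 ± 0.31 SE, edgeR adjusted p = 2.47e-05), the members lying below the class in every library. All 10 falls and 6 rises were called with any 1 library left out. Chil3, Egln3 and Rgcc did not pass without Pdgfrb-TK/PBS, nor Egln3 and Rgcc without D-CAN, and Lcn2 did not pass without D-CAN (edgeR adjusted p = 0.0661), without Pdgfrb-TK/PBS (0.0715) or without Pdgfrb-TK/GCV (0.333).

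Against the Mmp12 class the largest rises were Chil3 (3.13), Lcn2 (2.91), Acta2 (2.86), the calprotectin gene S100a8 (2.53), Vcan (2.40), Wfdc21 (2.33), Plcb1 (2.32), Lrg1 (2.12), the peroxisomal transporter gene Abcd2 (1.98) and Thbs1 (1.85). Of the Acta2 UMIs of the members of Pdgfrb-TK/GCV, a single cell held 271 of 285. The largest falls were Adamdec1 (-6.51), Mgl2 (-6.37), Ms4a7 (-4.58), Ccl8 (-4.02), Blnk (-3.74), the integrin gene Itgax (-3.51), Tspan13 (-3.06), the cell-fusion gene Dcstamp (-3.03), St18 (-3.02) and the collagenase gene Mmp13 (-2.98). Adamdec1, a protease-family gene of gut macrophages, was at 4.20, 0, 0 and 0 CPM in the members and 341, 188, 103 and 25.6 CPM in the Mmp12 class, the widest gap of these 20. In every omission of 1 library 4 rises and 7 falls were called. S100a8 did not pass without Pdgfrb-TK/GCV (edgeR adjusted p = 0.0850) or WT/PBS (0.0536), Abcd2 without Pdgfrb-TK/PBS (0.0878) or D-CAN (0.0530), Thbs1 without Pdgfrb-TK/PBS, and St18 without Pdgfrb-TK/GCV (0.158), Pdgfrb-TK/PBS (0.0815) or D-CAN (0.0598). Acta2, Lcn2, Lrg1, Adamdec1 and Ms4a7 were too low to be tested in at least 1 omission.

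**Figure D3:**
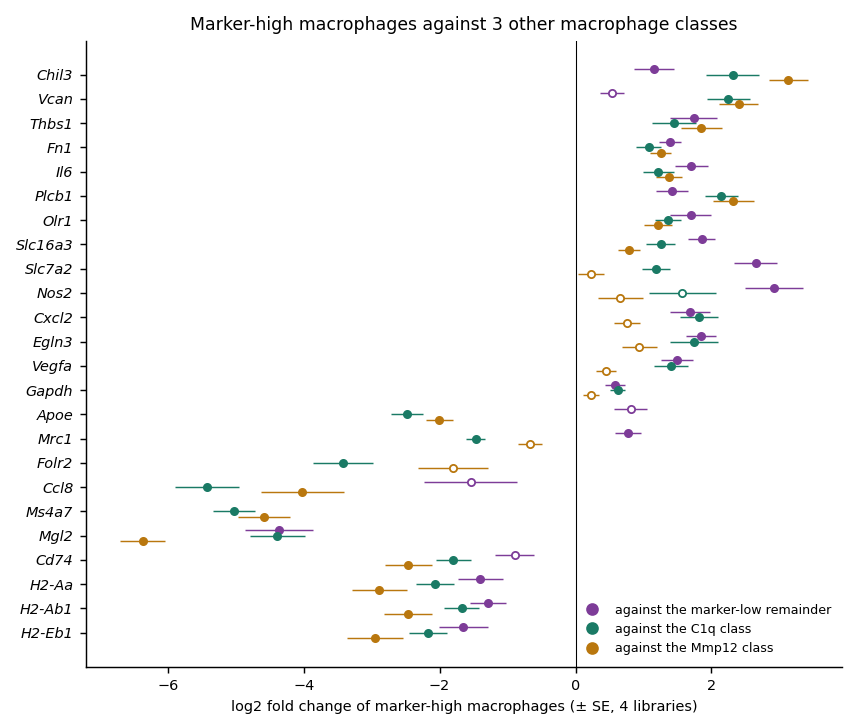
Log2 fold change of genes in marker-high macrophages against the marker-low remainder, the C1q class and the Mmp12 class, in fits over 4 libraries. Bars are 1 SE derived from the edgeR test statistic, not the spread of the libraries. Filled points passed an adjusted p of 0.05 in edgeR and open points did not. H2-Aa, H2-Ab1, H2-Eb1 and Mgl2 lie below 0 in all 3 contrasts, and Slc7a2 is filled against the remainder and the C1q class and open against the Mmp12 class.

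The members of Pdgfrb-TK/GCV were then set beside those of Pdgfrb-TK/PBS, and the members of D-CAN beside those of WT/PBS. With 1 library a side these differences have no replicate check and no test. Ratios were taken on the log2 scale with 1 CPM added, over genes with at least 100 UMIs in both libraries together and at least 50 CPM in the higher one. For GCV 298 of 3330 such genes were higher by 2-fold or more (8.95%) and 66 lower (1.98%). For D-CAN 131 of 943 were higher (13.9%) and 74 lower (7.85%). The minimum of UMIs bears on this balance, as the members of Pdgfrb-TK/GCV held most of the UMIs of their pair. At 50 UMIs 305 of 3742 genes were higher and 217 lower for GCV, and 286 of 2063 higher and 139 lower for D-CAN. After thinning to 2000 UMIs 69 were higher and 23 lower for GCV, and 29 higher and 29 lower for D-CAN. The medians over all genes were 0.07 and 0.05.

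MHC class II genes stood at the opposite ends of the 2 comparisons. For GCV 4 of 5 were 2-fold lower or more and none higher (median -2.63), and for D-CAN 5 of 5 were higher (median 3.05). H2-Eb1, a beta chain of class II, was at 36.8, 303, 1301 and 118 CPM, H2-Aa at 58.3, 390.1, 1500.5 and 181 CPM and H2-Ab1 at 94.1, 452, 1771 and 175 CPM in library order. D-CAN was the highest library for each and Pdgfrb-TK/GCV the lowest. These directions were not particular to the members. The summed class II list was at 2704, 3892, 13388 and 3174 CPM in the remainder in library order. It was at 2971, 7497, 18645 and 6661 CPM in the C1q class and 7086, 11012, 23649 and 9648 CPM in the Mmp12 class. The saline libraries lay between them, with Pdgfrb-TK/PBS above WT/PBS. For these 3 genes the range from control to control was smaller than that from each control to its own treated library. Against WT/PBS the GCV log2 ratios of H2-Eb1 and H2-Aa were -1.66 and -1.62. That of H2-Ab1 was -0.89, a smaller step than between the saline libraries. After thinning H2-Aa was higher in D-CAN by less than 2-fold.

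For GCV the hypoxia list had 5 of 13 genes 2-fold higher (Slc2a1, P4ha1, Ddit4, Ero1l and Ndrg1, median 0.33) and the inflammatory list 4 of 9 (Ptgs2, Il1a, Il6 and Nlrp3, median -0.04), none being lower by that much. Slc7a2 and Odc1, the enzyme that turns ornithine into putrescine, were 2-fold higher of 7 arginine and polyamine genes, Slc7a2 at 826, 409, 431 and 602 CPM and Odc1 at 95.7, 37.2, 160.4 and 359 CPM in library order. Glycolysis had 2 of 13 genes higher (Hk2 and Pfkl). Chil3 was higher by 1.33 on the log2 scale, and Ccr2 lower. Jun, Dnajb1 and Hspa1a, of 11 dissociation genes, were also 2-fold higher. Several of these directions depended on the control. Against WT/PBS the ratios of Ptgs2 (-1.78), Il1a (-0.22), Il6 (-0.15) and Nlrp3 (-0.60) turned, as did those of Odc1 (-1.90), Ccr2 (1.78), Dnajb1 (-0.087) and Hspa1a (-0.64). The 5 hypoxia genes stayed higher there, though Slc2a1, P4ha1 and Ddit4 by less than 2-fold, as did Slc7a2 and Chil3.

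Of the 10 genes with the largest excess in Pdgfrb-TK/GCV, 6 had no UMI in Pdgfrb-TK/PBS, where 3 UMIs would have been 18.6 CPM. By counting error alone, with each UMI taken as independent, Lsmem1 was at least 6.59-fold above that floor, Igfbp3 5.06-fold and Erc2 3.56-fold. On the same terms Zfpm2 and Cacnb2 were at least 3.17-fold above it and the receptor gene Calcrl 3.14-fold. The UMIs were gathered in cells, so these bounds are too firm. Zfpm2 and Cacnb2 were each detected in 20 of 277 members, and 1 cell held 27 and 39 of their 112 UMIs. After thinning to 2000 UMIs, which changes which cells are members, Zfpm2 was instead lower in Pdgfrb-TK/GCV, at -1.25 on the log2 scale, and Calcrl was not higher by 2-fold. The other 4 were Ckap2l (4.40 on the log2 scale), Cadm1 (3.84), the lubricin gene Prg4 (3.58) and the smooth-muscle actin gene Acta2 (3.49), the last from a single cell as given above and at -0.95 among members with 5 UMIs or more of the further marker. Against WT/PBS 8 of these 10 genes were still higher by 2-fold, and Calcrl (0.22) and Acta2 (0.67) were not. Calcrl, Igfbp3 and Cadm1 were each detected in 14.3% of the WT/PBS members, against 17.7%, 16.2% and 15.2% in Pdgfrb-TK/GCV. Genes lowest against the control were H2-Eb1 (-3.01), Mgp (-3.00), H2-Aa (-2.72), the trefoil factor gene Tff1 (-2.71), the chemokine gene Pf4 (-2.66), Cd74 (-2.63), H2-Ab1 (-2.25), Ccl2 (-1.97), Kcnk13 (-1.88) and Slit3 (-1.64). Of the 91 Mgp UMIs of the control members 86 were in 1 cell, as were 95 of 132 in Pdgfrb-TK/GCV, and all 27 Slit3 UMIs of the control members were in 1 cell. Tff1, a secreted product of epithelium, was found in 148 of 277 members of Pdgfrb-TK/GCV and 48 of 53 of Pdgfrb-TK/PBS, and KPC marker sums in these libraries were 1095 and 1028 CPM. Pf4 was at 38.4, 248, 1059 and 24.9 CPM and Ccl2, which draws monocytes, at 153, 601, 674 and 28.1 CPM in library order, so that against the saline library of the other model neither was lower in Pdgfrb-TK/GCV. The ratios of Tff1 (0.83) and Slit3 (3.72) were also above 0 against that library, and H2-Ab1, Mgp and Kcnk13 were not lower by 2-fold there. After thinning Slit3 was at 3.01 and neither Mgp nor Pf4 was lower by 2-fold.

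In D-CAN the iron genes were lower in 4 of 4 cases (Blvrb, Ftl1, Hmox1 and Fth1, median -1.77). The summed iron list was highest in WT/PBS in every macrophage class. There it was at 41389 CPM in the members, 36343 in the remainder, 25239 in the C1q class and 39320 in the Mmp12 class. The sums in D-CAN were 14349, 7140, 11765 and 15980 CPM in the same order of classes. Hmox1, which breaks down heme, was at 414, 223, 232 and 3087 CPM in library order, with WT/PBS standing apart from the other 3 libraries and 216 of its 990 UMIs in 1 cell. The glutathione-synthesis genes Gclm (-4.12) and Gclc (-3.93), the redox genes Srxn1 (-3.28) and Prdx1 (-2.94), Gm15726 (-5.13), the protease gene Ctsk (-5.06), the chemokine gene Cxcl1 (-2.93) and Wfdc21 (-2.81) were among the 10 lowest. Single cells of WT/PBS held 118 of 125 Ctsk UMIs, 105 of 214 Gclc UMIs, 118 of 306 Cxcl1 UMIs and 49 of 131 Gm15726 UMIs. Plet1 had 112 UMIs in 7 cells of WT/PBS, 59 of them in 1 cell, and 0 in D-CAN. By counting error alone it was at least 32.7-fold lower, a bound too firm for UMIs gathered in so few cells. Prdx1 was at 439, 564, 509.7 and 3913 CPM and Gclm at 47.8, 31.0, 17.8 and 327 CPM in library order, WT/PBS again being the highest library. Set against the saline library of the other model, the D-CAN ratios of all 4 iron genes turned (Blvrb 1.88, Ftl1 0.28 and Fth1 0.14 beside Hmox1). The D-CAN ratios there of Hmox1, Srxn1, Gm15726 and Ctsk were 0.055, 0.20, 0.70 and 3.55 on the log2 scale. Another 4 of the 10 lowest genes, Prdx1, Cxcl1 and Gclm among them, were not lower by 2-fold there.

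Genes highest in D-CAN against WT/PBS included the interferon-induced Ifitm1 (6.03), the eosinophil chemokine gene Ccl24 (5.74, 97 of 155 UMIs in 1 cell), Pf4 (5.35), Ccl2 (4.54), Gatm (4.11), an enzyme of creatine synthesis, Ifi27l2a (4.02), Ms4a6c (3.85), H2-Eb1 (3.45) and H2-Ab1 (3.34). Of the highest-ranked genes 9 stayed higher by 2-fold against Pdgfrb-TK/PBS, and Ccl2 (0.17 on the log2 scale) did not. Ifitm1 was at 16.8, 12.4, 470.5 and 6.24 CPM in library order, D-CAN standing apart from the other libraries. Of 8 hypoxia genes 3 were 2-fold higher (P4ha1, Ero1l and Ndrg1, median 0.71) and of 9 matrix genes 3, Adam8 and Tgfbi among them. Ccr2 and Plac8 were higher and Chil3 lower of 5 monocyte markers, while against Pdgfrb-TK/PBS Ccr2 was at -0.0067. The CAF genes Col3a1 and Col1a2 were also 2-fold higher (-3.10 and -0.062 after thinning), with CAF markers summing to 2327 CPM against 988 CPM in the control, and their part in the other differences was not tested.

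**Figure D4:**
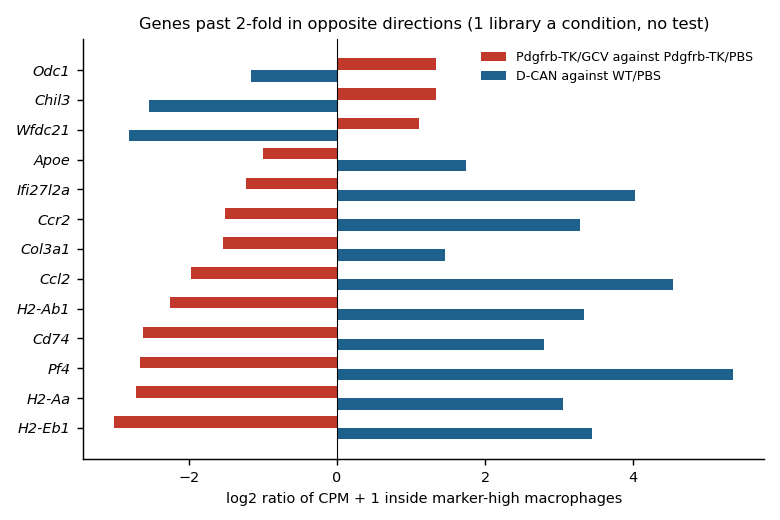
Log2 ratios of CPM + 1 inside marker-high macrophages, of Pdgfrb-TK/GCV to Pdgfrb-TK/PBS and of D-CAN to WT/PBS, for the 13 genes that passed 2-fold in opposite directions against their own controls, with 1 library a condition and no test. H2-Eb1 lies at -3.01 for GCV and 3.45 for D-CAN, and Chil3 at 1.33 and -2.54.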

How the data were processed

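The authors deposited filtered gene-by-cell matrices of raw counts of UMIs, 1 for each library, made with Cell Ranger (7.0.0 in the file header), STAR 2.6 and mm10 per the submitters' processing notes. Members and gene lists were chosen with earlier results of these data known. Cells with at least 200 genes were kept. For thinning, cells under 2000 UMIs were left out. No doublet caller was run. An alternative leaves out cells with at least 2 detected genes of the T-cell, B-cell, CAF, endothelial, KPC tumor-cell or acinar list. Counts were summed per class and library and fitted with edgeR 4.0.16 (R 4.3.3, TMM, filterByExpr, quasi-likelihood test, library as block, FDR 0.05), with DESeq2 1.42.0 as an alternative. Each SE is the size of the log2 fold change over the square root of the test's F statistic. The fit was also run on simulated counts with a fixed dispersion and no library effect, which does not cover differences between libraries. Treated and control members were compared as log2(CPM + 1) ratios with no test. Named genes were those of fixed lists and, outside the rule genes, the 10 largest rises and 10 largest falls with FDR under 0.05, the same sign in 4 libraries and at least 50 CPM in the higher class. For treatment they were the 10 highest and 10 lowest ratios among genes with at least 100 UMIs and 50 CPM. Genes in clauses on per-library levels were picked from these after their values were seen. Aldoa, whose symbol 2 gene IDs share, was left out of tests. The 4 libraries held 84020317 to 155408336 UMIs. Promoters came from RefSeq (GRCm38.p6), coordinates from GENCODE M21. Some items, the further marker of the rule among them, are not reported here.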

Additional observations from a re-analysis of the deposited data

Results flagged for a closer look

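Inside the marker-high macrophages 13 genes differed by 2-fold or more from their own saline control in opposite directions in the 2 models. Each model had 1 library a condition, so the differences between the models were not tested, and the 2 saline libraries also differ in host genotype. Values are log2 ratios of CPM with 1 CPM added, first for GCV and then for D-CAN. The MHC class II genes H2-Aa (-2.72 and 3.05), H2-Ab1 (-2.25 and 3.34), H2-Eb1 (-3.01 and 3.45) and Cd74 (-2.63 and 2.80) were lower with GCV and higher with D-CAN. So were the chemokine genes Ccl2 (-1.97 and 4.54) and Pf4 (-2.66 and 5.35), the chemokine receptor gene Ccr2 (-1.51 and 3.28), Apoe (-1.0 and 1.74), the interferon-induced Ifi27l2a (-1.23 and 4.02) and the collagen gene Col3a1 (-1.55 and 1.45). Chil3 (1.33 and -2.54), Odc1 (1.34 and -1.16) and Wfdc21 (1.11 and -2.81) were higher with GCV and lower with D-CAN. Against the saline library of the other model 6 of the 13 turned for GCV (Apoe 0.50, Ccl2 2.41, Ccr2 1.78, Ifi27l2a 0.91, Odc1 -1.90 and Pf4 0.60) and 2 of them also for D-CAN (Ccr2 -0.0067 and Odc1 2.08). Of the same 6 the D-CAN ratios of Ccl2 (0.17) and Apoe (0.23) fell under 2-fold, and Ifi27l2a (1.89) and Pf4 (2.09) stayed past it. The 4 class II genes, Col3a1, Chil3 and Wfdc21 kept both directions against that control, but H2-Ab1 (-0.89 for GCV), Col3a1 (-0.83 and 0.73), Chil3 (0.85 for GCV) and Wfdc21 (0.59 for GCV) were then under 2-fold. Thinning to 2000 UMIs turned the D-CAN ratios of Apoe (-0.21) and Col3a1 (-3.10). The summed class II list went in the same 2 directions in the other macrophage classes, as given above, so its directions were not particular to the members.

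The matrices of D-CAN and WT/PBS also list features for fluorescent proteins, which no comparison used. In the members of D-CAN GFPcds had 7 UMIs and Tdtomato 20, and in those of WT/PBS GFPcds had 10 and Tdtomato 12. The Pdgfrb-TK matrices list no such features, and the source of these UMIs was not tested.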

How the results depend on the processing

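The share of marker-high macrophages in Pdgfrb-TK/GCV over its control was 6.62 after thinning to 2000 UMIs (shallower cells left out), 2.19 of the cells left without those holding markers of another type and 7.49 against the saline library of the other model (4.24 within the gate). The D-CAN ratio turned to 0.990 against that other saline library, and to 0.505 within the gate. Calls against the remainder, 534 in all, became 957 with no filter on low counts, 1 without the library block, 82 after thinning, 89 without cells with markers of another type and 340 against a remainder with 0 UMIs of the selecting marker. The 215 calls against the C1q class became 575 with no filter, 6 without the block and 342 after thinning, and the 186 against the Mmp12 class became 550, 15 and 118. Leaving out 1 library at a time gave 73 to 505, 64 to 287 and 66 to 228 calls. Low counts came without Pdgfrb-TK/GCV (73, 100 and 66), without Pdgfrb-TK/PBS (345, 64 and 103) or without D-CAN (89 against the C1q class). DESeq2 called 370, 284 and 208. Genes past 2-fold for GCV, 364, became 566 with the other saline library, 92 after thinning and 98 without cells with markers of another type. For D-CAN 205 became 425 at 50 UMIs, 117 with the other saline library, 58 after thinning and 98 without such cells. The cause of these shifts was not tested.

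Against the remainder, thinning turned Vsir to -0.12, Col1a1 to -0.19, Ctsb to -0.014, Azin1 to -0.13 and Nr4a1 to -0.073, and against the C1q class Col1a1 turned to -0.72 without cells with markers of another type. With the other saline library the GCV ratios of Tff1, Pf4, Ccl2 and Slit3 turned to 0.83, 0.60, 2.41 and 3.72, those of Apoe, Ccr2 and Ifi27l2a to 0.50, 1.78 and 0.91, and those of Ptgs2, Il1a, Il6, Nlrp3, Odc1, Dnajb1 and Hspa1a to -1.78, -0.22, -0.15, -0.60, -1.90, -0.087 and -0.64. The D-CAN ratios of Gm15726, Ctsk, Hmox1 and Srxn1 turned to 0.70, 3.55, 0.055 and 0.20, and those of Blvrb, Ftl1, Fth1, Odc1 and Ccr2 to 1.88, 0.28, 0.14, 2.08 and -0.0067. After thinning Zfpm2 was at -1.25 and Slit3 at 3.01 for GCV, and Apoe, Col1a2 and Col3a1 were at -0.21, -0.062 and -3.10 for D-CAN, and with that marker at 5 UMIs or more Acta2 was at -0.95. Conditions could not be paired, because each had 1 library and the labels give no shared replicate numbers. In the comparisons between classes the library itself was the block, so classes were paired within libraries.

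The limits are 1 pooled library a condition, 35 to 53 members in 3 of the 4 libraries, thresholds in UMIs that depend on depth, transcripts of tumor cells and fibroblasts in the members, and saline libraries that differ from each other in the share of members by 1.68-fold over all cells and 2.94-fold within the gate, against 1.66 and 1.48 for D-CAN and its control.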
